A study of Homo sapiens with 4 samples.

Results

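The genes PFKFB3, PFKFB4, PDK1 and PDK3 were examined for the Mediator kinase CDK8 by chromatin immunoprecipitation followed by sequencing (ChIP-seq) in HCT116, an established human colorectal cancer cell line. The 3 libraries made with a CDK8 antibody were 1 from cells in normoxia and 2 from cells in hypoxia at 1% O2, each condition lasting 24 h; the labels number the latter as replicates, given here as hypoxia 1 and hypoxia 2. The labels name no genetic change in any group, and an input library completed the series of 4 samples. They do not say whether the hypoxia replicates came from separate cultures, so the difference between them may be technical. Members were the peaks in the authors' lists that overlapped a window of each gene with about 20 kb on each side, in hg19: PFKFB3 on chromosome 10 (6166 to 6298 kb), PFKFB4 on chromosome 3 (48535 to 48615 kb), PDK1 on chromosome 2 (173400 to 173484 kb) and PDK3 on the X chromosome (24463 to 24578 kb). These windows, 411 kb in all, held 10 of 19862 listed peaks in normoxia, 13 of 21993 in hypoxia 1 and 11 of 14256 in hypoxia 2. Peaks of different lists that overlapped or touched were merged to a region, which gave 16 regions at the 4 genes among 28150 in all.

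The 4 genes act at branch points between fermentation and respiration. PFKFB3 and PFKFB4 encode bifunctional enzymes that make and remove the sugar phosphate that activates phosphofructokinase, the committed step of glycolysis; in PFKFB3 the kinase activity strongly predominates. PDK1 and PDK3 encode kinases that phosphorylate and inhibit pyruvate dehydrogenase, which keeps pyruvate out of the citric acid cycle. All 4 are known as genes induced by hypoxia through the transcription factor HIF1, which binds the core letters ACGTG or GCGTG, and CDK8 is known as a coactivator of HIF1A.

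The promoters are shown because some of the CDK8 peaks at PFKFB3, PFKFB4 and PDK1 lay at or near gene starts. PDK3, which had no listed peak, is given for comparison. Each line gives the 250 bp before a RefSeq transcript start, on the strand of the gene, with ACGTG and GCGTG on either strand in capitals (CACGT and CACGC when read on the other strand). The coordinates are of GRCh38.p14, another build than that of the peaks, and are not to be set beside peak coordinates. All 4 genes had entries, with 2 starts each for PFKFB3 and PDK1; the first PDK1 entry, which held neither motif and had a GC content of 35.6%, is not shown.
PFKFB3 first start (chr10:6144671-6144920, plus strand): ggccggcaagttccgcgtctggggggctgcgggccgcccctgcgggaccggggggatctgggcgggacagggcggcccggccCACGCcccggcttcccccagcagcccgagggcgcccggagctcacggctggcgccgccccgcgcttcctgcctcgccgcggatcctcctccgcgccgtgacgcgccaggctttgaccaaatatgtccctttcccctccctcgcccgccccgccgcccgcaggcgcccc
PFKFB3 second start (chr10:6202682-6202931, plus strand): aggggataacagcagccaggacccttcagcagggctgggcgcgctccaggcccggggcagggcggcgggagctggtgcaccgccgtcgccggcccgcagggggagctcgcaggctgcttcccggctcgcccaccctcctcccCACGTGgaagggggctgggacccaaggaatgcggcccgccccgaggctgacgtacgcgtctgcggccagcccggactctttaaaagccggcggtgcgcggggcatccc
PFKFB4 (chr3:48556804-48557053, minus strand): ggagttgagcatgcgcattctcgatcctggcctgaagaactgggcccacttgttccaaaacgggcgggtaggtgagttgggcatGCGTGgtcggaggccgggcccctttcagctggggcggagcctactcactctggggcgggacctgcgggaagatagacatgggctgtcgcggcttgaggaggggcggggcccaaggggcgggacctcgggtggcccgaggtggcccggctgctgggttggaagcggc
PDK1 second start (chr2:172555840-172556089, plus strand): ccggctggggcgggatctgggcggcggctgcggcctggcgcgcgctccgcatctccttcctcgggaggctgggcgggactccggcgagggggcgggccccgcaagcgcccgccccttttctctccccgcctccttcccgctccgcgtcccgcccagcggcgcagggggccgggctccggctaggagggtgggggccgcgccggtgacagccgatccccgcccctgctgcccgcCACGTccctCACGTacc
PDK3 (chrX:24465036-24465285, plus strand): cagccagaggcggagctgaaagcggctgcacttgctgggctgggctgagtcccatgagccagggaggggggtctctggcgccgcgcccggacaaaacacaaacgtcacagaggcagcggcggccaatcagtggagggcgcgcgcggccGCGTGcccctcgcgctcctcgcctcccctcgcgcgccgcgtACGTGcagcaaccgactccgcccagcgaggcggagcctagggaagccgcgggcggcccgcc
The second PFKFB3 start held CACGTG, which reads ACGTG on both strands, with its first letter 108 bp before the start. The second PDK1 start held ACGTG on the other strand at 17 and 8 bp before it. PDK3 held GCGTG 102 bp and ACGTG 61 bp before its start, PFKFB4 held GCGTG 166 bp before, and the first PFKFB3 start held GCGTG on the other strand 168 bp before. Among 35116 RefSeq promoters of this length, 18.5% held ACGTG, 32.2% held GCGTG and 43.2% held either on either strand, so single matches are common. The 5 promoters shown had a GC content of 68.0% to 79.6%, above the median of 58.0% over all promoters, whereas the first PDK1 start lay below it. PDK3 lay within the range shown in GC content, with 73.6%. Its promoter was the only one of the 5 that held both motifs, while PFKFB3 held one motif at each start.

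In the windows with flanks, CDK8 was listed at PFKFB3, PFKFB4 and PDK1 in every library and at PDK3 in none. PFKFB3 had 5 peaks in normoxia, 6 in hypoxia 1 and 6 in hypoxia 2. PFKFB4 had 4, 5 and 4 in the same order, and PDK1 had 1, 2 and 1. Without the 20 kb on each side, the PFKFB4 counts fell to 0 in normoxia, 1 in hypoxia 1 and 2 in hypoxia 2, so all 4 normoxia peaks of its window lay outside the implied gene. In the windows with flanks, the largest difference between normoxia and a hypoxia library at a gene was 1 peak. At PFKFB4 and PDK1 the hypoxia libraries also differed by 1 from each other. With 1 normoxia and 2 hypoxia libraries no exact permutation of the labels can give a p below 0.333, so no test was run, and normoxia has no replicate. Read depth is unknown, and a peak missing from a list may have fallen below its threshold.

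**Figure D1:**
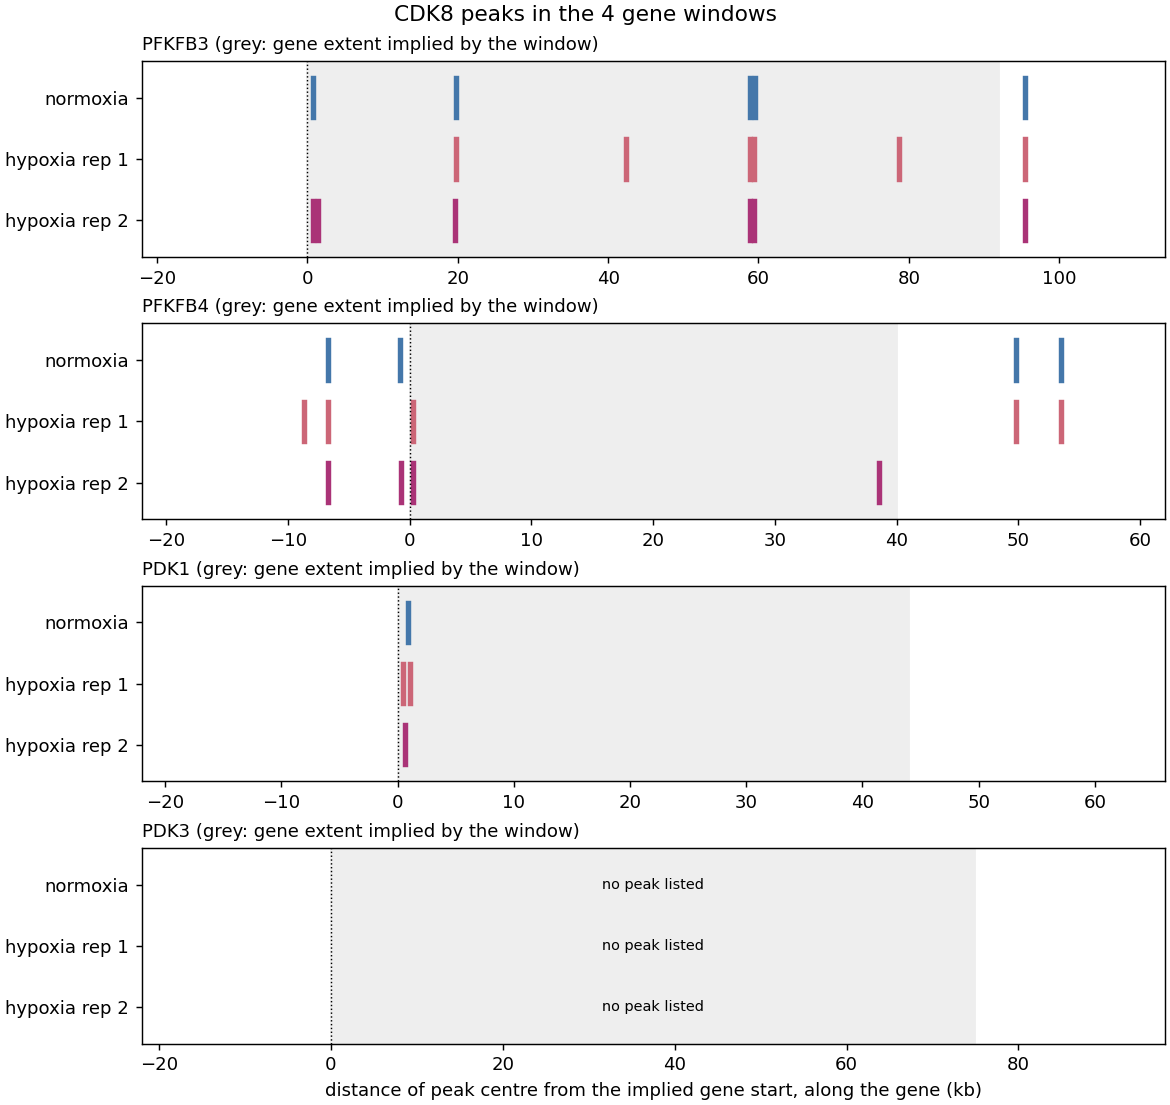
CDK8 peaks in the windows of PFKFB3, PFKFB4, PDK1 and PDK3 in normoxia and in hypoxia 1 and hypoxia 2. The x axis is the distance of the peak centre in kb from the gene start implied by the window, along the gene; ticks mark peaks and are not drawn to their width, and grey marks the implied gene. PFKFB3 has peaks through its body, PDK1 has them only at its start, and PDK3 has 0 in each library.

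The windows place each gene start only to about 1 kb, and the start used here is the window's edge less the 20 kb. By that measure a peak lay within 1 kb of the start of PFKFB3, PFKFB4 and PDK1 in normoxia and in hypoxia 2, and of PFKFB4 and PDK1 in hypoxia 1. Of the 16 regions, 4 lay within 1 kb of a start, 7 elsewhere within a gene, and 5 in the flanks.

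PFKFB3 had the most CDK8 regions, 8, of which 4 were listed in all 3 libraries. The one nearest its implied start, chr10:6186533-6187034, was listed in normoxia with a score of 19.48 and in hypoxia 2 with 15.85, and was not listed in hypoxia 1. Scores are the authors' own values per peak, of unstated scale, and are given with the percentile of the peak in its own list, where 100 is the best; these were percentiles 55.4 and 49.7. The nearest peak of hypoxia 1 was 18630 bp away, so the first start of PFKFB3 divided the hypoxia libraries rather than the conditions. A further region 317 bp downstream of the normoxia peak, chr10:6187352-6187577, was listed in hypoxia 2 alone, at percentile 26.9.

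Another CDK8 site in PFKFB3, which may lie near its second start, was shared by every library. A pair of adjacent regions, chr10:6244625-6245145 and chr10:6245229-6245674, lay 58.9 and 59.5 kb into the gene and 83 bp apart. The first of the pair had a score of 18.32 in normoxia, 20.37 in hypoxia 1 and 29.13 in hypoxia 2, at percentiles 51.2, 55.7 and 84.2. The second had scores of 8.13, 7.54 and 18.91, at percentiles 4.15, 4.16 and 62.6. In normoxia and in hypoxia 1 the second peak was thus among the lowest of the list, and hypoxia 2 stood above both. The centres of the peak at the implied start and of the first of this pair were 58.1 kb apart in normoxia and 58.1 kb apart in hypoxia 2, and the RefSeq starts of PFKFB3 lie 58.0 kb apart in GRCh38. The second of those starts is the one whose promoter held CACGTG. Its place in hg19 was not determined.

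The remaining regions of PFKFB3 lay away from the implied start and from this pair. A region 19.7 kb into the gene, chr10:6205416-6206054, was listed in all 3 libraries, with scores of 19.02 in normoxia, 37.29 in hypoxia 1 and 18.21 in hypoxia 2. Another beyond the gene's implied end, chr10:6281251-6281571, was also listed in all 3, with scores of 16.55, 46.48 and 17.35. At both sites hypoxia 1 had the highest percentile, 80.0 and 85.5, and normoxia the lowest, 53.9 and 44.3, with hypoxia 2 at 60.1 and 56.3. Hypoxia 2 lay nearer to normoxia than to hypoxia 1 at both. Percentiles of lists of different lengths can show neither a change in binding nor its absence. Regions at 42.3 kb (chr10:6228256-6228436) and 78.6 kb (chr10:6264422-6264820) were in hypoxia 1 alone, at percentiles 7.78 and 22.3.

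PFKFB4 held the single region of the 4 genes that both hypoxia libraries listed and normoxia did not, a hypoxia-only pattern, and it lay at the implied start of the gene. This region, chr3:48594425-48594957, had a peak of 223 bp with a score of 20.68 in hypoxia 1 and one of 533 bp with a score of 32.71 in hypoxia 2, at percentiles 56.5 and 87.6. The peak of hypoxia 2 was the best-ranked peak of that library in the 4 windows. Hypoxia-only regions made up 3.18% of all regions (894 of 28150) and 1 of 16 here (6.25%, Wilson 95% interval 1.11 to 28.3). The interval includes the background share but is too wide to show likeness to it. It also treats neighbouring regions as independent.

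In the lists as deposited, normoxia was not without a CDK8 peak near the PFKFB4 start. It listed chr3:48595645-48595900, 687 bp upstream of the hypoxia region, with a score of 7.13 at percentile 1.73. Hypoxia 2 listed a peak there as well, chr3:48595611-48595852, with a score of 14.28 at percentile 41.1, while hypoxia 1 did not. Normoxia therefore had the upstream site alone, hypoxia 1 the site at the start alone, and hypoxia 2 both. Joining peaks within 1 kb, chosen after the data were seen, merged the sites into 1 region listed in all 3 libraries, which left 0 regions of the hypoxia-only pattern. Under a required overlap of 50% of both peaks the 223 bp and 533 bp peaks also counted as separate regions. Shorter lists went the other way. With the 14256 best peaks of each list, the normoxia peak was dropped and the upstream site was in hypoxia 2 alone. With the better-scoring 50% of each list, no library listed the upstream site. The region at the start stayed hypoxia-only under both settings.

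**Figure D2:**
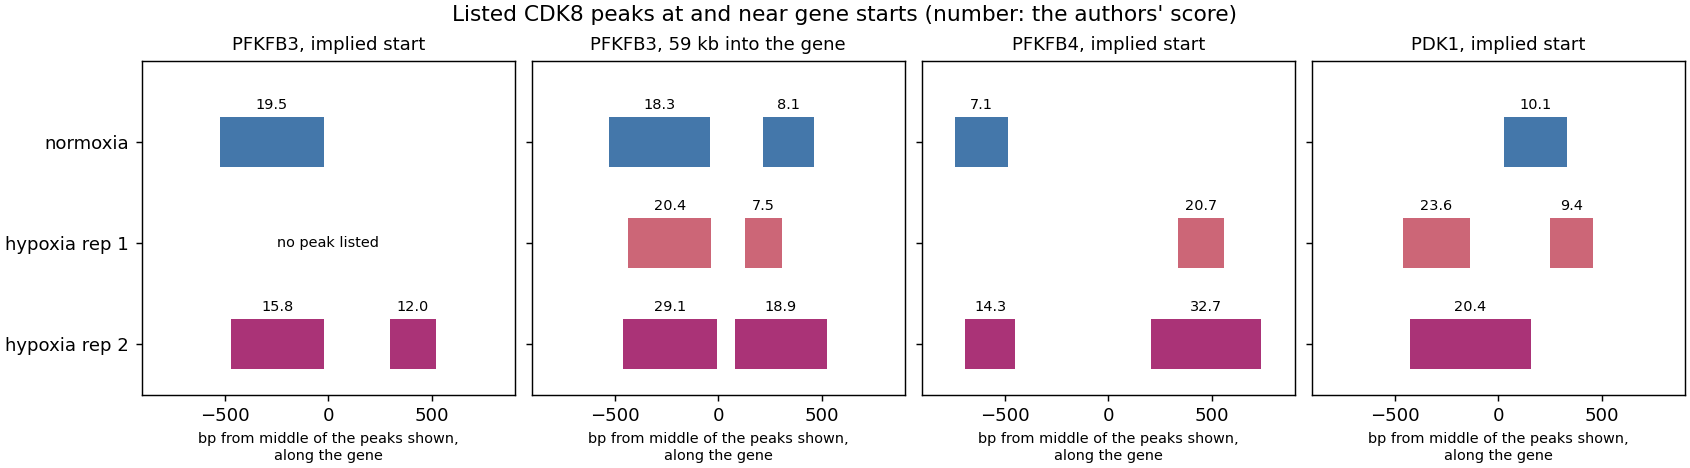
Listed CDK8 peaks near the implied starts of PFKFB3, PFKFB4 and PDK1, and 59 kb into PFKFB3, to scale, with the authors' score above each peak. The x axis is the distance in bp from the middle of the peaks shown, along the gene, and the rows are the 3 libraries. At PFKFB4 normoxia has only the upstream peak (score 7.13), and at PDK1 the normoxia peak lies downstream of the peaks that score 23.64 and 20.42 in the hypoxia libraries.

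The other regions of the PFKFB4 window lay in its flanks, apart from one. A region 6.68 kb upstream of the start, chr3:48601470-48601881, was the only one of the 7 in all 3 libraries, with scores of 25.91 in normoxia, 25.27 in hypoxia 1 and 26.86 in hypoxia 2. The region beside it, chr3:48603490-48603811, was in hypoxia 1 alone with a score of 28.68. COL7A1, which encodes a collagen of anchoring fibrils, is the next protein-coding gene lying wholly beyond the PFKFB4 entry of the RefSeq table on that side. Genes overlapping that entry were not looked for, so a nearer gene may have been passed over. These regions were assigned to no gene. Regions on the far side of the gene, chr3:48541273-48541816 and chr3:48544976-48545394, were in normoxia and hypoxia 1 and not in hypoxia 2. By the same rule SHISA5 is the next protein-coding gene there. Within the gene, 38.6 kb from the start, chr3:48556124-48556763 was in hypoxia 2 alone, with a score of 19.20 at percentile 64.0.

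PDK1 had CDK8 at 1 place, around its implied start, in all 3 libraries, but the peaks covered different parts of it. A RefSeq start of another gene, PDK1-AS1, lies 374 bp from the second PDK1 start in GRCh38. Which of these starts the peaks belong to was not tested. Normoxia listed chr2:173420788-173421091 with a score of 10.05 at percentile 11.8. Hypoxia 1 listed chr2:173420301-173420621 with a score of 23.64 at percentile 62.8, and chr2:173421011-173421217 with a score of 9.44 at percentile 11.5. Hypoxia 2 listed chr2:173420336-173420916 with a score of 20.42 at percentile 67.9. The best hypoxia peaks overlapped each other by 286 bp, and none of those 286 bp was covered in normoxia. The normoxia peak lay 166 bp downstream of the better peak of hypoxia 1, overlapped its weaker peak by 81 bp, and overlapped the peak of hypoxia 2 by 129 bp. The region of 917 bp counts as listed in all 3 libraries because the peak of hypoxia 2 bridges it, and no base of it was covered in all 3. Under a required overlap of 50% of both peaks it split into 4 regions, each listed in 1 library.

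With equal list sizes, taking the 14256 best peaks of each list, the lowest score kept in normoxia was 13.25. The normoxia peak of PDK1 was then dropped, and its region became hypoxia-only, as at the start of PFKFB4. Regions of that pattern then numbered 2 of 13, at the starts of PFKFB4 and PDK1, and made up 5.26% of all regions at equal list sizes. The call at PDK1 thus rests on whether a normoxia peak from the lower scores is admitted, and the only error available is the difference between 2 hypoxia libraries. The RefSeq table gives PDK1 starts 717 bp apart in GRCh38, and the centres of the peaks of hypoxia 1 were 653 bp apart. Only hypoxia 1 listed 2 peaks there, the weaker at percentile 11.5. Whether they belong to separate starts was not tested.

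Shared length was compared for each pair of libraries at each gene. As a share of the length covered by either library of a pair (the Jaccard index), the hypoxia libraries shared 0.348 at PDK1, against 0.108 for normoxia with hypoxia 1 and 0.171 with hypoxia 2. At PFKFB3 the hypoxia libraries shared 0.362, against 0.392 and 0.677. At PFKFB4 they shared 0.167, against 0.371 and 0.204. Over all listed peaks the index was 0.360 for the hypoxia libraries, 0.444 and 0.441. PDK1, with 1 region, was therefore the gene at which the hypoxia libraries resembled each other more than either resembled normoxia, whereas at PFKFB3 and PFKFB4 they resembled each other least, as over all peaks; the difference between the genes was not tested.

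PDK3 had no listed peak in its window of 115 kb in any library. On its left the nearest peak lay 294 kb from the window edge in normoxia, 294 kb in hypoxia 1 and 295 kb in hypoxia 2. On its right the nearest lay 134 kb away in normoxia, 456 kb in hypoxia 1 and 134 kb in hypoxia 2. The gap around PDK3 was thus far wider than the window in each list. Among tiles of 115 kb, 62.8% on chromosomes 1 to 22 and X held no region, and 80.3% on the X chromosome. An empty tile was thus the usual state, but the tiles include gene-free sequence. No share was computed for windows around genes. Binding below the thresholds of the lists cannot be seen in them.

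The windows of PFKFB3 and PFKFB4 held more regions than most tiles of their length. Of tiles of 132 kb on chromosomes 1 to 22 and X, 2.92% held at least the 8 regions of the PFKFB3 window, and 2.12% held at least its 4 regions in all 3 libraries. Of tiles of 80 kb, 1.75% held at least the 7 regions of the PFKFB4 window. Only 2 of those 7 lay within the implied gene, and a window wider by 30 kb on each side held 11, so the PFKFB4 count is mostly one of its surroundings. At least 1 region in all 3 libraries, as for PFKFB4, was held by 15.7% of such tiles. For PDK1, 31.3% of tiles of 84 kb held at least 1 region and 16.1% at least 1 in all 3 libraries. On the chromosome of each gene alone, the shares with at least as many regions were 2.82% for PFKFB3, 0.768% for PFKFB4 and 30.3% for PDK1, and those with at least as many in all 3 libraries were 2.43%, 14.0% and 15.2%. The tiles cover gene-free sequence as well, and the windows were laid around genes, so these shares describe the genome and are no test.

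**Figure D3:**
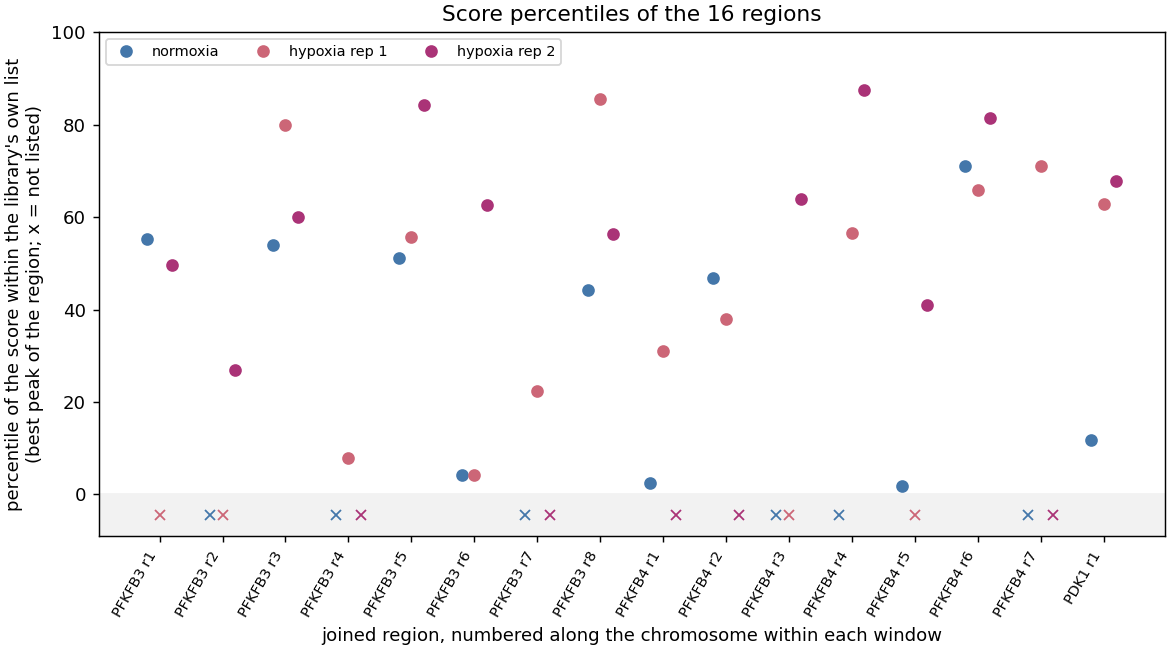
Percentile of the best CDK8 peak of each of the 16 regions within the list of its library; crosses in the grey band mark regions that a library did not list. Percentiles range from 1.73 to 71.1 in normoxia, from 4.16 to 85.5 in hypoxia 1 and from 26.9 to 87.6 in hypoxia 2.

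CDK8 peaks at these genes were of middling rank. The median percentile was 45.5 in normoxia, 55.7 in hypoxia 1 and 62.6 in hypoxia 2, where 50 is the middle of a list, and the highest percentile of any peak was 87.6. Peaks were 181 to 640 bp wide. Hypoxia 1 stands apart from the other lists in 122 peaks on the Y chromosome, where they list 0, and in a shortest peak of 181 bp, where theirs measure 226 bp (normoxia) and 225 bp. Of its 13 peaks here, 3 had that shortest width, as had 2.29% of its whole list: one within the regions of hypoxia 1 alone at PFKFB3, one in the second of the adjacent PFKFB3 pair and one downstream of PFKFB4. Their part in the results was not tested.

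In the lists as deposited, the interval for the 16 regions included the share over all regions for each pattern. The intervals are wide, and none was computed for the shortened lists. Regions in all 3 libraries numbered 6 (37.5%, 18.5 to 61.4), against 33.0% of all regions. A further 4 were in normoxia and 1 hypoxia library, against 22.5% of all regions: 2 with hypoxia 1 (15.9% of all regions) and 2 with hypoxia 2 (6.65%). Hypoxia 1 alone held 3 and hypoxia 2 alone held 2, against 22.6% and 5.46%. Normoxia alone held 0 of 16, which allows a share of up to 18.8% by the limit of 3 counts and 19.4% by the Wilson interval, against 13.2%. Intervals and this limit cover counting error only. Every normoxia peak at the 4 genes therefore lay in a region that at least 1 hypoxia library also listed. Without hypoxia 1 there were 13 regions, of which 8 were in normoxia and hypoxia 2, 3 in hypoxia 2 alone and 2 in normoxia alone. Without hypoxia 2 there were 15, of which 8 were in normoxia and hypoxia 1, 5 in hypoxia 1 alone and 2 in normoxia alone. Shares over all regions were not computed with a library left out, so these counts were not compared with the whole series.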

How the data were processed

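The authors deposited 1 peak list for each of the 3 CDK8 libraries, with chromosome, start, end, a MACS peak name and a score; the score is the authors' own value and its scale is not stated. File names call the lists merged without saying what was merged. The submitters' processing notes name Bowtie 0.12.7, MACS2 2.0.9, CASAVA 1.8.2 and FastQC, and the build GRCh37/hg19; for their roles and thresholds, the sources used here give nothing. The input library, against which CDK8 was set per the series design, was not analysed here.

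Starts were converted to count from 1. Peaks that overlapped by at least 1 bp or touched were joined, and each region was assigned to 1 of 7 presence patterns. The joining code was run on simulated lists whose peaks always overlapped within a site and lay well apart between sites. Bridged or closely spaced peaks were not simulated. Percentiles are the percent of a list with a score no higher. All regions of the 4 genes are described. The members, lists and windows were chosen with earlier results of these data known. Motifs and GC content were computed on RefSeq promoters (GRCh38.p14). No annotation of hg19 was used, so 16 further genes of the pathway were not analysed here. Alternatives tried were equal list sizes, keeping each list's upper 50% by score, joining within 500 bp or (added later) 1 kb, an overlap of 50% of both peaks, other window widths and leaving out a hypoxia library. Analyses ran in Python 3.11.15 with pandas 2.3.3, numpy 2.4.6, scipy 1.17.1 and matplotlib 3.10.9.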

Additional observations from a re-analysis of the deposited data

How the results depend on the processing

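All alternatives were planned except joining within 1 kb, which was added after seeing the data. Hypoxia-only regions are those of both hypoxia libraries that normoxia lacks. With the better-scoring 50% of each list, 10 regions were listed in the windows, from 4 peaks in normoxia and 7 in hypoxia replicate 1. Of these, 3 were in all 3 libraries (28.4% of all regions under that setting). A further 3 were hypoxia-only (3.80%) and 1 was in normoxia alone (13.5%). The hypoxia-only regions were those at the implied starts of PFKFB4 and PDK1 and the one beyond the implied end of PFKFB3. Equal list sizes gave 2 hypoxia-only regions (5.26% of all regions), from 6 normoxia peaks and 8 in hypoxia replicate 1. An overlap of 50% of both peaks gave 0 of that pattern and 2 in normoxia alone, and joining within 1 kb gave 0 of that pattern. Shares over all regions were not computed for the overlap and joining settings, nor with a hypoxia library left out. Windows without the 20 kb held 10 regions, 5 normoxia peaks and 8 peaks of hypoxia replicate 1. Windows wider by 30 kb on each side held 22 regions, of which 2 were hypoxia-only, against 3.18% of all regions. With one hypoxia library left out, the other listed 3 to 5 regions that normoxia lacked, another quantity than regions of both, and normoxia listed 2 that the other lacked. Fewer peaks, a stricter overlap or fewer libraries change some counts by construction. Hypoxia-only regions of the shortened lists, 3 of 10 and 2 of 13, were a larger share than over all regions, 3.80% and 5.26%. No interval was computed for these counts, and the cause was not tested. No paired analysis was possible because the normoxia library carries no replicate number and no result comes from a test. Presence and absence depend on read depth, which is unknown.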
